A study of Mus musculus with 48 samples.

Results

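Expression at dawn, ZT0, was compared with expression late in the night, ZT20, in epidermal stem cells of young mice. The 4 arrays of young cells labelled T0 and the 4 arrays of young cells labelled T20 were chosen by age and time from the labels, which gives 8 of the 48 arrays of the series. All mice were wild-type female C57B6/J mice with no transgene or treatment named, and the labels give epidermis as the tissue. The young ZT0 and young ZT20 mice were 8 weeks old. The aged mice, which serve here only for the same comparison at another age, were 102 to 116 weeks old at ZT0 and at ZT20. The series sampled 6 times of day, 4 h apart, with 4 mice for each age and time. Each array is thus a separate mouse, and ZT0 and ZT20 are different mice. ZT0 is by convention lights on. The sources used here give no date of harvest, light schedule or way of isolating the cells, so a harvest or processing batch shared by the mice of 1 time and the time itself cannot be told apart.

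The circadian clock is a feedback loop in which the activators Arntl (Bmal1), Clock and Npas2 drive the genes of their own repressors, the Per and Cry families, and of output factors such as Dbp, Tef and Hlf. In mouse epidermis the clock is known to set the time of day at which stem cells replicate their DNA. Glucocorticoids, secreted by the adrenal gland in a daily rhythm, are a second time signal that reaches the skin through the blood.

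All values are log2 expression, in which a difference of 1 is a change of 2-fold. A change is ZT0 minus ZT20, so that a positive one is higher at ZT0. It was tested with limma over 12823 genes, and a gene is called where its p, adjusted by Benjamini-Hochberg over all of them, is under 0.05. At ZT0 45 genes were called higher (0.351% of the genes tested) and 37 lower (0.289%), 82 in all (0.639%). With an unadjusted p under 0.05 there were 981 higher (7.65%) and 513 lower (4.0%). The 4 ZT0 values and the 4 ZT20 values did not overlap for 44 of the 45 and 34 of the 37 genes called, against 465 genes higher (3.63%) and 260 lower (2.03%) of all tested. Among the genes called, the changes had a median of 0.65 where higher (range 0.40 to 1.72) and -0.75 where lower (range -0.42 to -2.30). Changes of at least 1 were seen in 13 of them. The median change of all genes was 0.03. Of the genes called, 54.9% were higher at ZT0, and 43.9% after cyclic loess normalisation (61 higher and 78 lower).

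The cells carried the keratins and factors of basal keratinocytes at both times. Krt5 averaged 12.74 at ZT0 and 12.68 at ZT20, Krt14 12.39 and 12.34, and the basal transcription factor Trp63 11.34 and 11.30. Of the 10 markers of the hair follicle bulge, 8 lay above 3.96, the limit under which the dimmest 25% of genes were set aside. Krt15 (12.08 at ZT0 and 12.12 at ZT20), Sox9 (9.46 and 9.79), Nfatc1 (9.40 and 9.48) and Postn (9.13 and 8.62) were high among them, and Cd34 (3.30 and 3.26) and Lgr5 (3.70 and 3.43) were under the limit. Keratins of suprabasal cells were also high, with Krt1 at 11.50 and 11.80 and Krt10 at 11.72 and 11.76. Under the limit were 5 of 8 endothelial markers (Cdh5 among them), 5 of 8 of melanocytes (Dct), 3 of 4 of fat (Adipoq), 4 of 12 of Langerhans and myeloid cells (Cd207 and Ptprc), 3 of 10 of fibroblasts (Col3a1) and 0 of 6 of T cells. Other members of these lists were well above it, such as Thy1, on both the fibroblast and the T cell list (8.99 at ZT0 and 9.27 at ZT20), the fibroblast marker Mmp2 (7.42 and 7.69), the myeloid markers H2-Aa (7.23 and 7.24) and H2-Ab1 (6.63 and 6.82), and the melanocyte markers Mitf (7.37 and 7.86) and Pmel (6.01 and 5.91). The red cell globin Hba-a2 was at 11.35 and 11.43, while the other red cell markers tested were lower. Hba-a1 was at 7.1 and 7.2, Hbb-b2 at 4.3 and 4.3 and Alas2 at 4.4 and 4.4. No member of the 13 cell type lists was called in either direction (limma). Of the 79 members tested, 10 were higher and 6 lower at an unadjusted p under 0.05, with Thy1 counted in 2 lists. Of all genes 7.65% were higher and 4.0% lower at that p. Without ZT0 replicate 2, 2 suprabasal markers and 1 Merkel cell marker were called higher, and without ZT0 replicate 3, 1 suprabasal marker was called lower. Without both, 1 suprabasal marker was higher. With array weights, 2 suprabasal markers, 1 fibroblast marker and 1 Merkel cell marker were called higher, and 1 suprabasal, 1 bulge and 1 melanocyte marker lower. The 10 basal markers had a median change of 0.05 and the 12 suprabasal markers of -0.19. At an unadjusted p under 0.05, 2 suprabasal markers were higher (16.7%) and 4 lower (33.3%, against 4.0% of all genes). The part of cell mixture in the changes below was not tested.

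The ZT0 arrays were less alike than the ZT20 arrays. The median correlation of an array with the others of its group was 0.9838 to 0.9893 at ZT0 and 0.9917 to 0.9944 at ZT20. Limma's array weights, which are low for arrays that fit their group poorly, were 0.848, 0.294, 0.472 and 2.044 for ZT0 replicates 1 to 4 and 2.461, 0.793, 2.635 and 0.578 for ZT20 replicates 1 to 4. ZT0 replicate 2 had the highest Sox9 and the lowest replication genes of the 4, and ZT0 replicate 3 had an Arntl of 7.34 where the other ZT0 arrays had 8.52 to 8.90. Without ZT0 replicate 2 the call counts were 218 higher and 64 lower. Without ZT0 replicate 3 they were 28 and 53. Without ZT0 replicate 1 they were 31 and 23, and without ZT20 replicate 1, 2 or 3 they were 21 and 18, 18 and 15, and 25 and 23. Without ZT0 replicates 2 and 3 together, a choice made after seeing the data, they were 23 and 11, and 18 of the 45 and 11 of the 37 genes were still called. All 82 genes kept the sign of their change in each of these fits. With array weights 499 genes were called higher and 248 lower. Array medians lay between 4.787 and 4.883 at ZT0 and between 4.834 and 4.878 at ZT20.

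The genes that fell at ZT0 included 6 of the 38 tested on a list of S phase and replication, the copying of DNA. Replication begins when the helicase made of the Mcm proteins is loaded and opens the double helix, DNA polymerase alpha lays down the primers, and DNA ligase 1 joins the finished fragments. Many of these genes are known targets of the E2F transcription factors. The promoters of 4 genes that fell are shown because they hold the letters of an E2F site in the window from 250 bases before to 50 bases after the start (RefSeq, GRCm38.p6). The letters searched were TTTGGCGC and TTTCCCGC on both strands, and the capitals mark each match. For Mcm5 (chr8:75109259-75109558, plus strand) the match began 149 bases before the start. For Mcm3 (chr1:20820263-20820562, minus strand) there were 2 matches, 19 and 38 bases past the start. For Pola1 (chrX:93632106-93632405, minus strand) it began 138 bases before the start, and for Pclaf (chr9:65890073-65890372, plus strand) 5 bases before it.
Mcm5: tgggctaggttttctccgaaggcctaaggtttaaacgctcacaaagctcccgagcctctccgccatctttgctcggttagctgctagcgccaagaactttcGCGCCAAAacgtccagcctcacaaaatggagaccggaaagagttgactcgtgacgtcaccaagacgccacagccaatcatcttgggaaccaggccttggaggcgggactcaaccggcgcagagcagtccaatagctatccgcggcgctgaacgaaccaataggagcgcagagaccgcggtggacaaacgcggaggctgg
Mcm3: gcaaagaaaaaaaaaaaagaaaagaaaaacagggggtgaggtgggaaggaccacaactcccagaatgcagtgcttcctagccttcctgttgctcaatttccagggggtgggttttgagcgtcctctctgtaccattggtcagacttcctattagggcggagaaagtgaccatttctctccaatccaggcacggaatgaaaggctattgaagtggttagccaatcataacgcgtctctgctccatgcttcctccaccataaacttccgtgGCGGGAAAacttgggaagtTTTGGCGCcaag
Pola1: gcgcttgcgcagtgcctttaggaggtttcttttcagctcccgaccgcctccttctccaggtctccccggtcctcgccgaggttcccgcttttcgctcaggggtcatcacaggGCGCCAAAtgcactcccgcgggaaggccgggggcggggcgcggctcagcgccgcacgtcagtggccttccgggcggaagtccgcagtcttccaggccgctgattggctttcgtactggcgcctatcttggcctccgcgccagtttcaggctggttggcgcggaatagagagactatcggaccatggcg
Pclaf: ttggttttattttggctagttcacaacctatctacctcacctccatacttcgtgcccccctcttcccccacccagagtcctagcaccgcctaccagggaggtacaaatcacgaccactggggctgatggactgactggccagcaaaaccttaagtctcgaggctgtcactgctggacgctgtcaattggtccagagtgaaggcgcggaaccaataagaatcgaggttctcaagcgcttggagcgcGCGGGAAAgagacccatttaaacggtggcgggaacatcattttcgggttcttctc

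These letters were in 322 of the 10302 tested genes with a promoter window (3.13%). They were in 11 of the 30 replication genes with a window (36.7%), in 7 of the 32 genes called lower (21.9%) and in 0 of the 36 genes called higher. Of the 6 replication genes called, Mcm5, Mcm3 and Pola1 held them, and Lig1, Mcm2 and Mcm10 did not in these windows. A match describes the letters of the window and was not tested as a binding site.

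Mcm5, a subunit of the replicative helicase, had 8.64, 8.01, 9.17 and 8.79 in the 4 ZT0 arrays, against 9.75, 9.82, 9.60 and 9.60 in the 4 ZT20 arrays. Every ZT0 array was below every ZT20 array, with replicate 2 lowest. The change was -1.04 ± 0.18 (SE, n = 4 each; limma, adjusted p = 0.00552). A second, dim probe set of Mcm5 differed by 0.12.

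The gene of the catalytic subunit of DNA polymerase alpha, Pola1, had 5.69, 6.08, 6.27 and 5.80 at ZT0, against 7.06, 7.43, 6.81 and 6.92 at ZT20. The groups did not overlap, and the change was -1.10 ± 0.20 (limma, adjusted p = 0.00812). Pclaf, which binds the sliding clamp PCNA, had 7.46, 7.14, 8.54 and 8.02 at ZT0, against 8.76, 9.36, 8.81 and 8.97 at ZT20. ZT0 replicate 3 came close to the lowest ZT20 array, and the change was -1.19 ± 0.25 (limma, adjusted p = 0.0187).

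Mcm2, Mcm3, Lig1 and Mcm10 completed the replication genes called. The helicase subunits Mcm2 and Mcm3 had changes of -0.95 (limma, adjusted p = 0.0192) and -0.92 (0.00948), DNA ligase 1 (Lig1) of -0.83 (0.00659), and Mcm10, which helps to activate the helicase, of -0.69 (0.0273). In all 4 the ZT0 and ZT20 arrays did not overlap. Mcm10 falls outside the rule for named genes and was named after its values were seen, as were the other genes marked so below.

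Of the 40 genes on the list of S phase and replication, 38 were tested. None was called higher and 6 were called lower, and at an unadjusted p under 0.05, 1 was higher and 23 were lower (60.5%, against 4.0% of all genes). The list had a median change of -0.41, against 0.03 for all genes, and 34 of the 38 changes were negative. The 4 positive ones were Rfc3, Gins3, Slbp and Ccne1, of which Ccne1, a cyclin of the G1 to S transition, was the 1 at an unadjusted p under 0.05 (0.41). The mean level of the list was 6.89, 6.68, 7.28 and 6.99 in the ZT0 arrays, against 7.37, 7.48, 7.30 and 7.35 in the ZT20 arrays. All ZT0 arrays were below all ZT20 arrays, with ZT0 replicate 3 and ZT20 replicate 3 almost level.

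**Figure D1:**
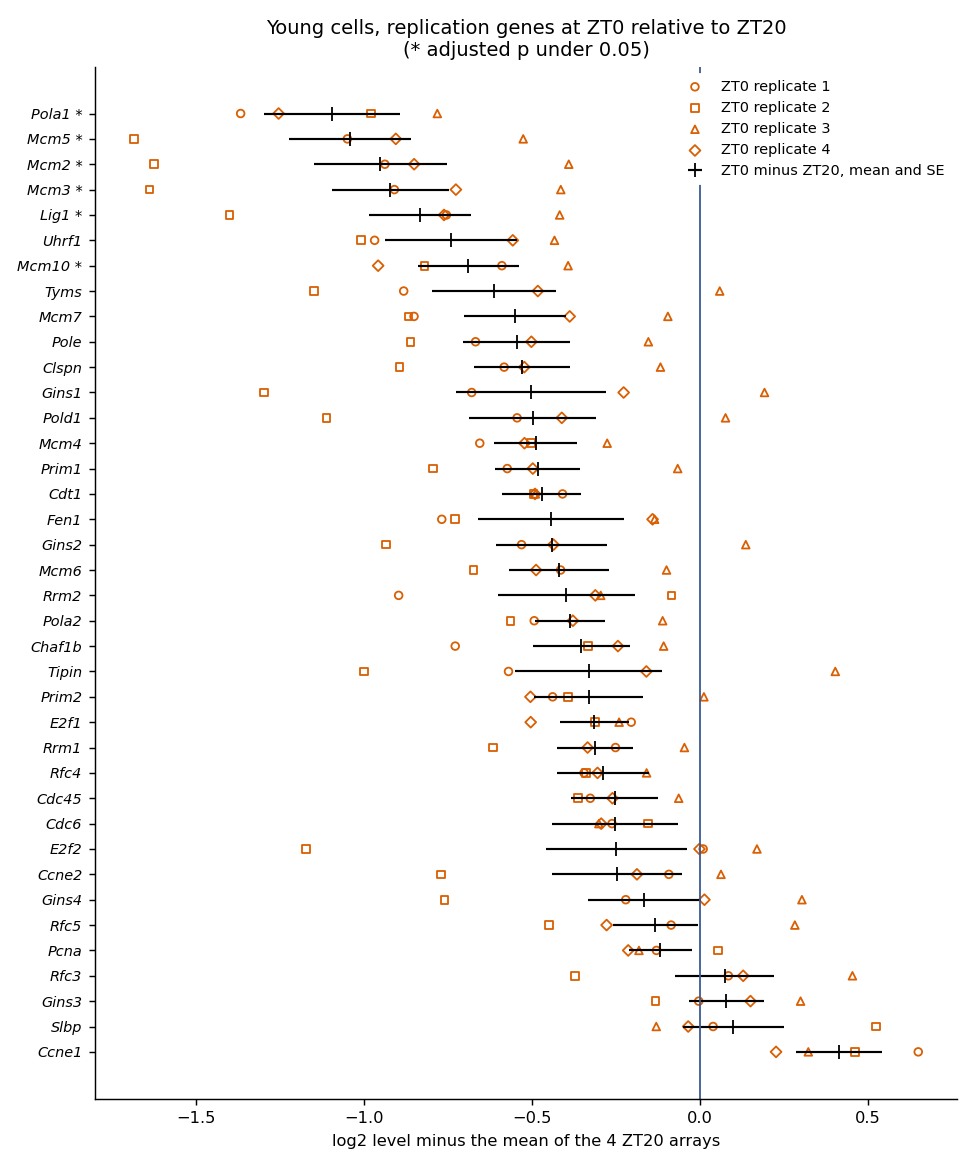
Level of each of the 38 replication genes in the 4 ZT0 arrays of young cells (open symbols, 1 shape per replicate), as log2 minus the mean of the 4 ZT20 arrays, with the fitted change and its SE (black, limma, n = 4 each). Most points lie left of 0, mostly with the squares of replicate 2 farthest and the triangles of replicate 3 nearest to it, and the 6 genes called are starred.

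The count of replication genes called depended on single arrays. It was 14 without ZT0 replicate 3, 6 without replicate 2 and 5 without both. It was 2 without ZT20 replicate 2, 14 after cyclic loess normalisation and 19 with array weights. The median of the list was -0.32 without ZT0 replicate 2, -0.50 without replicate 3 and -0.45 without both.

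Ung, which removes uracil from DNA, was also called lower. It had 7.20, 6.57, 7.53 and 7.43 at ZT0, against 7.86, 8.40, 7.87 and 7.62 at ZT20. The ranges did not overlap, and its change was -0.75 ± 0.18 (limma, adjusted p = 0.0438). It was the 1 of 30 DNA repair genes called, on a list with a median of -0.16 and, at an unadjusted p under 0.05, 1 member higher and 6 lower. Without ZT0 replicate 2 the list had a median of -0.0042, with 1 gene called higher and 0 lower, where 218 and 64 of all genes were called. At an unadjusted p under 0.05, 2 of the list were then higher and 4 lower. With array weights the median was -0.03 with 1 called each way, where 499 of all genes were called higher and 248 lower.

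Cdca5 (sororin), which holds sister chromatids together, changed by -1.04 ± 0.24 (limma, adjusted p = 0.0421). Both Ung and Cdca5 passed in 8 of 19 alternative settings (adjusted p up to 0.284 and 0.196). Named after their values were seen, Dnmt1, which copies DNA methylation onto new strands, was lower by -0.49 (limma, adjusted p = 0.0421), Rad18 by -0.75 (0.0318), Mms22l by -0.58 (0.0187) and Cdca7l by -0.80 (0.00637). Dnmt1 passed in 9 of 19 settings (adjusted p up to 0.227), Rad18 in 10 of 19 (0.25), Mms22l in 12 of 18 (0.16) and Cdca7l in 17 of 19 (0.111). Rad18 and Mms22l serve replication forks that have met damage. ZT0 replicate 3 overlapped the ZT20 arrays for Rad18 and for none of the other 3.

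Genes of the next phases of the cell cycle were not called. Of 42 genes of G2 and mitosis, 0 were called by limma, and at an unadjusted p under 0.05, 4 were higher (9.52%, against 7.65% of all genes) and 3 lower (7.14%, against 4.0%). Their median change was 0.03, equal to that of all genes to 2 decimals. The mean of the list ranged from 6.62 to 7.44 over the ZT0 arrays and from 6.88 to 7.04 over the ZT20 arrays, so that the ZT0 range enclosed the ZT20 range. Without ZT0 replicate 2 the median was 0.15, with 1 gene called, higher, and 7 higher and 1 lower at an unadjusted p under 0.05. Without ZT0 replicate 3 the median was -0.10, with 0 called and 3 higher and 9 lower at that p, so the sign of the median turned with the array left out. Without both it was -0.04, again with 0 called (3 higher and 4 lower), and with array weights 2 were called, both higher. Kif23, a motor of cell division, differed by 0.60 (limma, adjusted p = 0.173) and Cdc25b, a phosphatase that starts mitosis, by 0.47 (0.177). A second, dim probe set of Kif23 differed by -0.21. Top2a, which untangles DNA, differed by -0.52 (0.177).

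Of the G1 cyclins and CDK inhibitors, 1 of 16 was called, Btg2, an inhibitor of proliferation. It was lower by -0.57 ± 0.13 (limma, adjusted p = 0.0399) and passed in 8 of 19 settings. The median of that list was -0.04. At an unadjusted p under 0.05, 1 member was higher and 1 lower (6.25% each, against 7.65% and 4.0% of all genes). Of all genes 0.289% were called lower.

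The largest change of all was that of Fkbp5, a co-chaperone that restrains the glucocorticoid receptor and is itself induced by it. Its values were 5.84, 6.16, 6.44 and 5.70 at ZT0, against 7.80, 8.38, 8.68 and 8.50 at ZT20. The highest ZT0 array was far below the lowest ZT20 array. The change was -2.30 ± 0.20, or 4.94-fold lower (limma, adjusted p = 3.26e-07), and Fkbp5 was called in all 19 alternative settings. Another probe set changed by -2.47, and a dim one by 0.07.

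No other member of the 17 glucocorticoid-induced genes tested was called, and the median of the list was -0.06. At an unadjusted p under 0.05, 1 was higher and 2 lower (5.88% and 11.8%, against 7.65% and 4.0% of all genes). Tsc22d3 (GILZ) and Pdk4, named after their values were seen, differed by 0.00 each (limma, adjusted p = 0.999 and 1.0, SE 0.23 and 0.25). In young cells Tsc22d3 averaged 8.31 ± 0.30 at ZT0, 10.54 ± 0.27 at ZT16 and 8.31 ± 0.57 at ZT20 (SD, n = 4 each). Fkbp5 averaged 6.04 ± 0.33, 9.96 ± 0.22 and 8.34 ± 0.38 at the same 3 times. The stress-response gene Ddit4 differed the other way (0.67, adjusted p = 0.0855) with no overlap of the arrays, and the transcription factor Zbtb16 by -0.64 (0.0981).

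In the core clock, the output factor Tef and the repressor Per2 fell. A promoter window of Tef is shown for its E-box, CACGTG, the element that the clock's activators bind. It begins 127 bases before the start in the window chr15:81802423-81802722 on the plus strand (RefSeq, GRCm38.p6) and is in capitals.
Tef: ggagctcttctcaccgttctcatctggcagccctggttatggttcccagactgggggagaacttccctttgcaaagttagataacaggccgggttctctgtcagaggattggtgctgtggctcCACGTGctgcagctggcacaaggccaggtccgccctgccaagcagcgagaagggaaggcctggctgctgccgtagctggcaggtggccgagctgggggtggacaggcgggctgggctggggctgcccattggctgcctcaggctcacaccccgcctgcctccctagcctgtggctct

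CACGTG was in 11.3% of all tested genes with a window and in 4 of the 15 clock genes with a window (26.7%). A second window of Tef, not shown (chr15:81811164-81811463, plus strand), holds it 138 bases before its start. These matches were not tested as binding sites. Tef had 7.57, 7.39, 7.53 and 7.36 at ZT0, against 8.04, 7.99, 8.21 and 8.19 at ZT20. The 2 groups were well apart, and the change was -0.64 ± 0.12 (limma, adjusted p = 0.00659), with -0.76 on its second probe set. Tef was at its lowest of the 6 times at ZT0 (7.46 ± 0.10) and at its highest at ZT12 (9.55 ± 0.15; SD, n = 4 each).

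The Per2 values were 5.66, 5.34, 5.44 and 5.62 at ZT0, against 6.28, 5.78, 6.33 and 6.34 at ZT20. The ranges did not overlap, with ZT20 replicate 2 nearest to the ZT0 arrays. Per2 changed by -0.67 ± 0.16 (limma, adjusted p = 0.0421), and by -1.40 on its second probe set, but passed in 6 of 19 alternative settings (adjusted p up to 0.312).

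These were 2 of the 18 clock genes tested, and 0 were called higher by limma. At an unadjusted p under 0.05, 2 were higher (11.1%, against 7.65% of all genes) and 4 lower (22.2%, against 4.0%). The median of the list was -0.12. Per3 had a larger difference of -1.12 ± 0.32 that did not pass (limma, adjusted p = 0.103), with ZT0 values of 4.92, 6.07, 5.18 and 5.53 and ZT20 values of 6.50, 7.07, 6.81 and 5.79 that overlapped. The other probe sets of Per3 differed by 0.10, -0.36, -0.001 and 0.15. Nr1d2, a repressor that acts on Arntl, differed by 0.48 (0.19) and Per1 by 0.36 (0.36). The output factors Dbp and Hlf differed by -0.36 (0.515) and -0.28 (0.475), and the repressors Cry1 and Bhlhe40 by -0.39 (0.579) and -0.38 (0.213). A second probe set of Hlf differed by 0.10.

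The activators did not pass either. Npas2 differed by 0.17 and Clock by 0.22 (limma, adjusted p = 0.613 and 0.718). A second probe set of Npas2, brighter at ZT0 and ZT20 (8.06 and 7.65), differed by 0.41. The other probe sets of Clock differed by -0.009 to 0.09. Arntl differed by -0.33 ± 0.33 (0.769) with ZT0 replicate 3, the low array, and by 0.02 without it. A second probe set of Arntl differed by 0.016 with all arrays. The remaining 6, Cry2, Rora, Nfil3, Ciart, Csnk1d and Csnk1e, differed by -0.13 to 0.09.

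The largest rise was that of Ppil6, a member of the cyclophilin family, which had 8.19, 7.87, 8.62 and 8.25 at ZT0, against 6.37, 6.17, 6.72 and 6.80 at ZT20. The lowest ZT0 array was well above the highest ZT20 array, and the change was 1.72 ± 0.17, or 3.29-fold (limma, adjusted p = 2.83e-06). Ppil6 was called in all 19 alternative settings.

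Through the 6 times, from ZT0 to ZT20, Ppil6 averaged 8.23, 8.13, 6.83, 6.86, 8.52 and 6.51 in young cells. It thus had a trough at ZT20 between higher levels at ZT16 and ZT0, 4 h to either side.

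**Figure D2:**
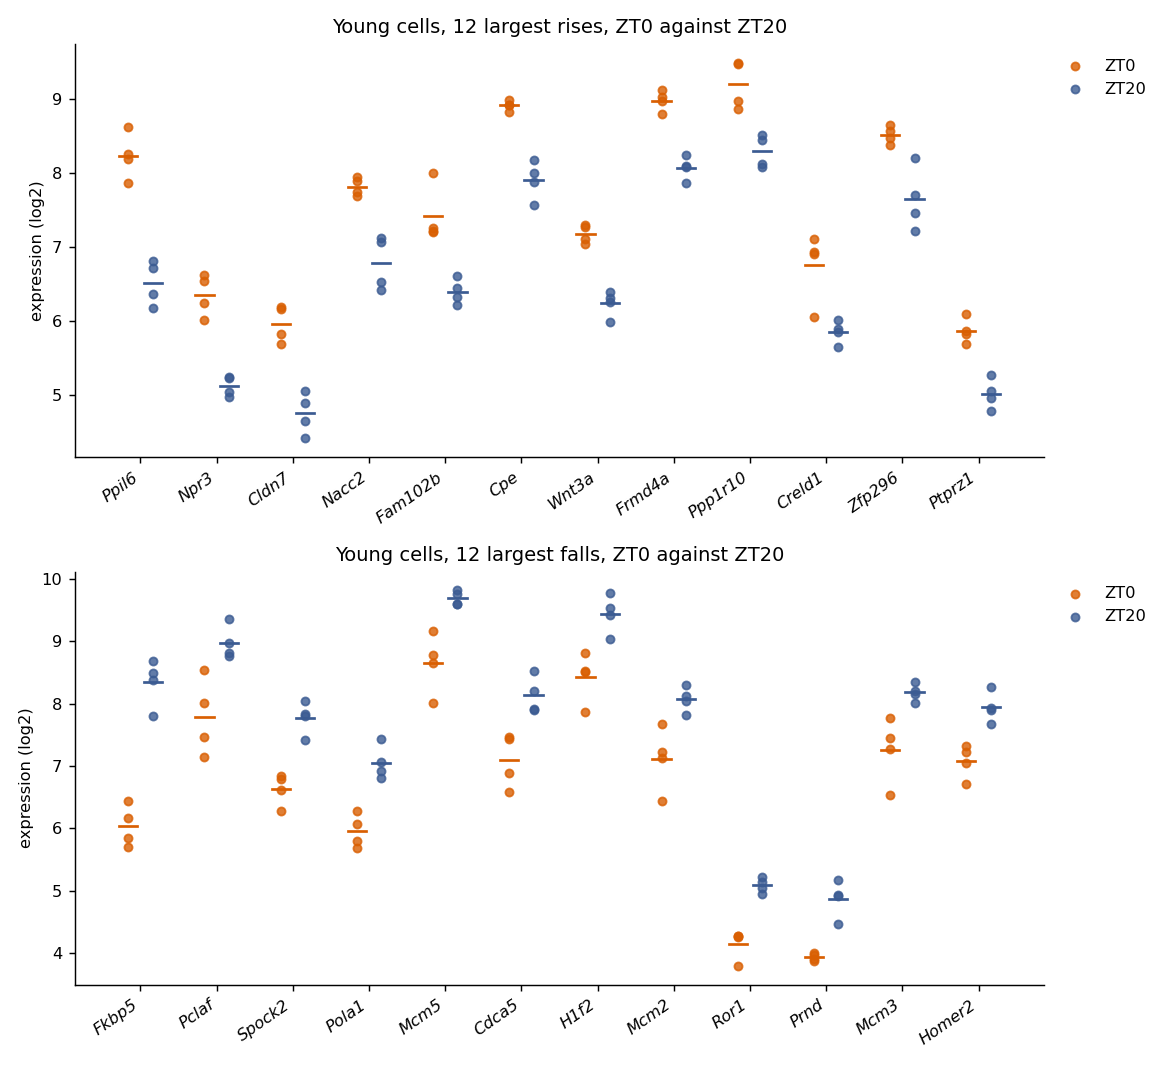
Values of the 12 largest rises (top) and 12 largest falls (bottom) in young cells, as log2 expression, for each of the 4 ZT0 arrays (orange, left) and 4 ZT20 arrays (blue, right), with the mean as a line. In each of these 24 genes the ZT0 points lie entirely on 1 side of the ZT20 points, since genes whose arrays overlapped were passed over, and Fkbp5 and Ppil6 are the farthest apart.

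Npr3, Cldn7, Nacc2, Cpe and Frmd4a were among the other large rises. Npr3, the receptor that clears natriuretic peptides, had 6.54, 6.23, 6.62 and 6.01 at ZT0, against 5.24, 4.97, 5.04 and 5.22 at ZT20. Its arrays were apart, and the change was 1.23 ± 0.18 (limma, adjusted p = 0.00126). Its other 2 probe sets changed by 0.42 and 0.51.

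Cldn7, a claudin of cell junctions, had 5.82, 5.68, 6.18 and 6.15 at ZT0, against 4.88, 4.65, 4.41 and 5.06 at ZT20, again with no overlap. Its change was 1.21 ± 0.18 (limma, adjusted p = 0.00138). The transcriptional repressor Nacc2 changed by 1.03 ± 0.15 (0.000978), while its other 3 probe sets changed by 0.10 to 0.36.

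Cpe, a carboxypeptidase that trims prohormones, had 8.98, 8.92, 8.82 and 8.92 at ZT0, against 7.88, 8.17, 8.00 and 7.56 at ZT20. The ZT0 arrays were close together and all above the ZT20 arrays, with a change of 1.01 ± 0.17 (limma, adjusted p = 0.00413). Frmd4a, a scaffold protein with a FERM domain linked to cell polarity, had 8.79, 9.02, 8.97 and 9.11 at ZT0, against 8.23, 7.87, 8.07 and 8.09 at ZT20. Its change of 0.91 ± 0.11 had an adjusted p of 8.94e-05 (limma), below that of every other gene called but Fkbp5 and Ppil6.

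Other rises were those of Fam102b (1.03, adjusted p = 0.0177), the membrane protein Creld1 (0.91, 0.0104), the zinc finger protein Zfp296 (0.86, 0.0101), the receptor phosphatase Ptprz1 (0.85, 0.00864) and Ppp1r10 (0.91, 0.00948), a nuclear subunit of protein phosphatase 1 (limma). Fam102b was carried in part by ZT0 replicate 3 (8.00, against 7.20 to 7.26 in the other 3), and without it the adjusted p was 0.0597.

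Wnt3a and Dkk3, secreted proteins of the Wnt pathway that maintains epidermal stem cells, rose. Wnt3a, a ligand, had 7.10, 7.03, 7.30 and 7.27 at ZT0, against 6.25, 5.99, 6.31 and 6.39 at ZT20. The groups were apart by more than the range within either, and the change was 0.94 ± 0.16 (limma, adjusted p = 0.00568), called in all 19 alternative settings.

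Dkk3, of the family of secreted Wnt modulators named Dickkopf, had 7.33, 7.26, 7.55 and 7.22 at ZT0, against 6.66, 6.38, 6.64 and 6.83 at ZT20. Its arrays did not overlap, the change was 0.71 ± 0.13 (limma, adjusted p = 0.00637), and its second probe set changed by 0.75. These were the 2 called of 24 Wnt pathway genes, with 0 called lower. At an unadjusted p under 0.05, 8 were higher and 0 lower, against 7.65% and 4.0% of all genes, and the median change was 0.20 (0.24 without ZT0 replicates 2 and 3).

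The ligands Wnt5a (0.58, limma, adjusted p = 0.136) and Wnt10b (0.48, 0.206) were not called. Ror1, a receptor for Wnt5a that was not on the list, was lower, with 4.25, 3.79, 4.27 and 4.27 at ZT0, against 5.04, 5.14, 5.21 and 4.95 at ZT20. The ZT0 arrays were near the dim limit and all below the ZT20 arrays. The change was -0.94 ± 0.15 (limma, adjusted p = 0.00173), against -0.19 on its second probe set.

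In 2 other signalling lists 1 gene each was called. Lfng, a fringe enzyme that adds sugars to Notch receptors and so tunes their response to ligands, was higher by 0.73 ± 0.17 (limma, adjusted p = 0.0457) and passed in 7 of 19 settings. It was the 1 called of 14 Notch pathway genes (median 0.08), with 3 higher and 2 lower at an unadjusted p under 0.05 (21.4% and 14.3%). Etv5, a transcription factor that MAPK signalling induces, was higher by 0.79 ± 0.16 (0.0177) and passed in 14 of 19. It was the 1 called of 18 genes of EGF receptor and MAPK feedback (median -0.04), with 3 higher and 1 lower at that p (16.7% and 5.56%). Of all genes 7.65% were higher and 4.0% lower at that p, and 0.351% were called higher.

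**Figure D3:**
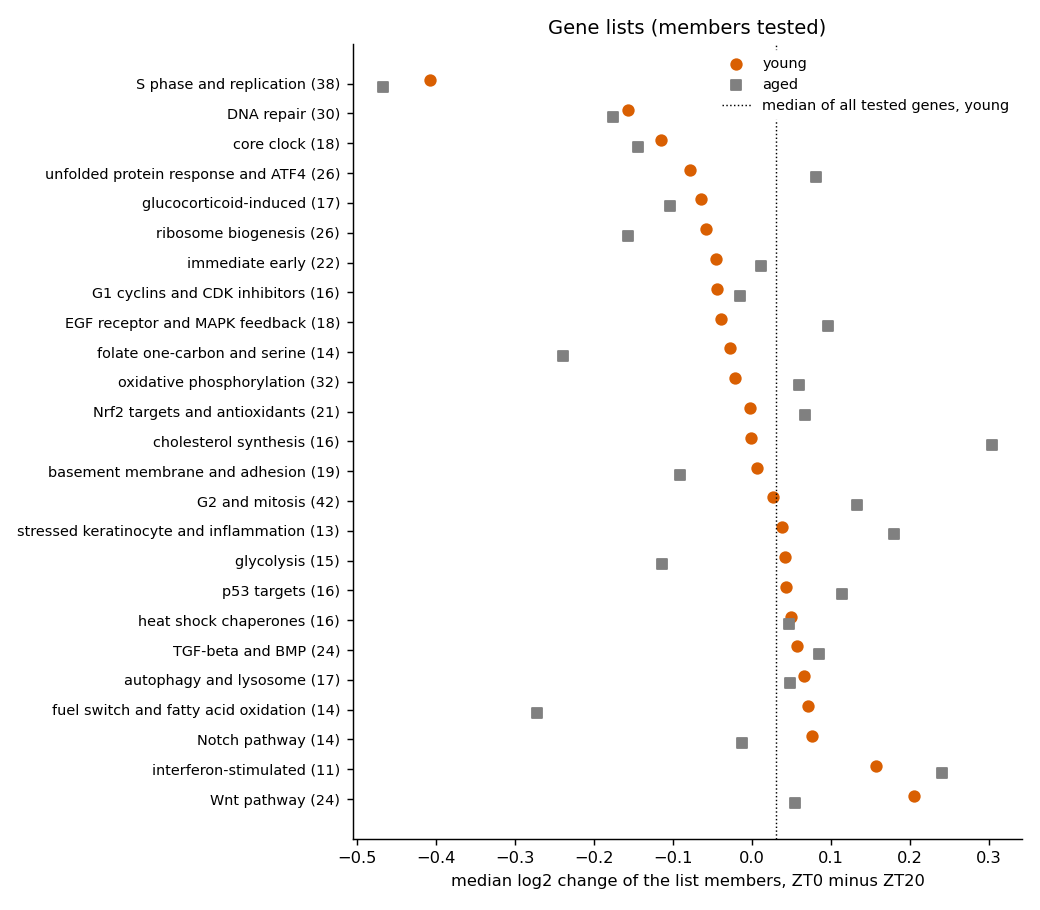
Median log2 change (ZT0 minus ZT20) of the pathway lists with at least 10 members tested, in young cells (orange circles) and aged cells (grey squares), with the number of members in brackets. The dotted line is the median of all tested genes in young cells (0.03). S phase and replication lies lowest (-0.41 in young, -0.47 in aged) and Wnt highest in young cells (0.20, and 0.05 in aged).

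In 18 of the 26 pathway lists no gene was called in young cells (limma). Among these were oxidative phosphorylation (32 genes, median -0.02), ribosome biogenesis (26, -0.06), cholesterol synthesis (16, 0.00), glycolysis (15, 0.04), heat shock chaperones (16, 0.05) and immediate early genes (22, -0.05). At an unadjusted p under 0.05, these 6 lists had 1 higher and 1 lower, 0 and 4, 0 and 0, 0 and 0, 2 and 1, and 1 and 5 members. Of all genes 7.65% were higher and 4.0% lower at that p. The share lower was 15.4% in ribosome biogenesis and 22.7% in immediate early genes, and the share higher was 12.5% in heat shock chaperones. Oxidative phosphorylation had 3.12% each way. The gene nearest to a call in them was Utp20, which takes part in making the small ribosomal subunit (-0.39, adjusted p = 0.145). Close to the threshold in other lists were Asns, which makes asparagine (-0.41, 0.0788), Ppara, a lipid-sensing receptor (0.58, 0.0688), and the integrin subunit Itga3 (0.36, 0.0855).

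Among the remaining large falls, the proteoglycan Spock2 had 6.84, 6.27, 6.80 and 6.61 at ZT0, against 7.81, 8.04, 7.83 and 7.41 at ZT20. The arrays were apart, and the change was -1.14 ± 0.19 (limma, adjusted p = 0.00358), against -0.21 on a dimmer probe set. Homer2, a scaffold protein, changed by -0.87 ± 0.17 (0.011). H1f2, a linker histone that packs DNA, had 8.51, 7.87, 8.52 and 8.81 at ZT0, against 9.78, 9.42, 9.54 and 9.04 at ZT20. ZT0 replicate 4 lay just under ZT20 replicate 4, and the change was -1.02 ± 0.17 (0.00438).

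Prnd, which codes for the prion-like protein doppel, averaged 3.94 ± 0.06 at ZT0 and 4.87 ± 0.29 at ZT20 (SD, n = 4 each). Its ZT0 mean was under the dim limit of 3.96, so the size of its change (-0.94, limma, adjusted p = 0.00136) is set by a level that is hardly measured.

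Most genes called at this step were at an extreme of their day at ZT0 in young cells. Of the 45 genes called higher, 36 had their highest mean of the 6 times at ZT0 and 25 their lowest at ZT20. Of the 37 called lower, 28 had their lowest mean at ZT0, 19 their highest at ZT20 and 12 at ZT12. The genes were chosen for a difference between these times, so these counts are a description. In aged cells 7 of the 45 had their highest mean at ZT0 and 22 at ZT8, and 17 of the 37 had their lowest at ZT0.

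**Figure D4:**
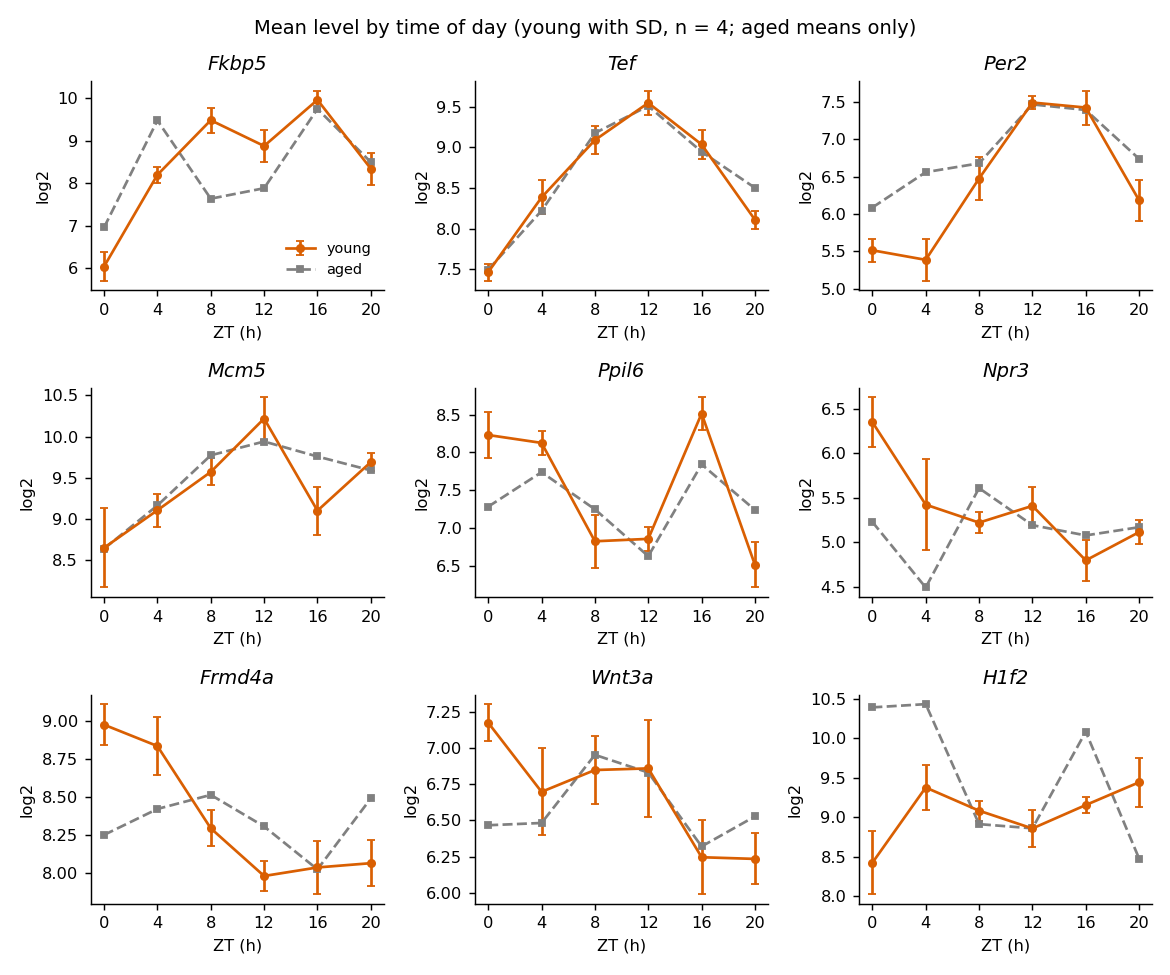
Mean log2 level of 9 genes called in young cells at each of the 6 times of day, in young cells (orange, with SD, n = 4) and aged cells (grey, means only). Young Npr3, Frmd4a and Wnt3a are highest at ZT0, Fkbp5, Tef, Mcm5 and H1f2 are lowest there, and Ppil6 dips at ZT20.

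The same step was then taken in the aged cells, to ask which of the young changes the other age shared. The 48 arrays were fitted together, with each age and time as a group. In aged cells 148 genes were called higher at ZT0 (1.15%) and 121 lower (0.944%), 269 in all (2.1%). The difference between the ages, young step minus aged step, passed for 90 genes in the positive direction (0.702%) and 77 in the negative (0.6%), 167 in all (1.3%). Of these 167 genes, 161 had steps of opposite sign in the 2 ages. With the young calls from the fit of the 24 young arrays, 13 were called in young cells alone, 83 in aged cells alone, 7 in both and 64 in neither. The aged count of 269 was 96, 165, 128 and 492 without aged ZT0 replicate 1, 2, 3 and 4 and 144 without aged ZT20 replicate 2. The count of 167 was 87 without young ZT0 replicate 1 and 105, 79 and 94 without young ZT20 replicate 1, 2 and 3. Among the aged arrays it was 59, 64 and 356 without ZT0 replicate 1, 3 and 4 and 89 without ZT20 replicate 2. Across all genes the young and aged steps had a Pearson r of -0.01, which describes these genes and is no test, since genes are not independent.

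Replication genes were called lower in both ages, 6 of 38 in young cells (fit of the 24 young arrays). In aged cells 13 of the 38 were called lower and 0 higher by limma, against 0.944% and 1.15% of all genes. At an unadjusted p under 0.05, 27 were lower and 0 higher, but the aged share of all genes at that p is not given here. All 38 aged changes were negative. Their median was -0.47, against 0.03 for all genes in aged cells and -0.41 for the list in young cells. The step differed between the ages for 0 of the 38 by limma's test, and for 4 at an unadjusted p under 0.05, where 12.2% of all genes had one. Mcm5 changed by -1.04 in young cells (adjusted p = 0.00552) and by -0.95 in aged cells (0.00283), Pola1 by -1.10 and -0.79, and Mcm3 by -0.92 and -0.85. For Mcm5 the difference of the steps was -0.09 (adjusted p = 0.937).

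Fkbp5 and Tef were also called in both. Fkbp5 changed by -2.30 in young and -1.54 in aged cells (aged adjusted p = 0.0269), and Tef by -0.64 and -1.01 (aged adjusted p = 0.000259). Their differences did not pass (adjusted p = 0.655 and 0.538). The Per2 changes were -0.67 and -0.65, the aged one with an adjusted p of 0.0975. In all, of the 37 genes called lower in young cells, 10 were called lower and 5 higher in aged cells, and 27 had the same sign. Of all genes 0.944% were called lower and 1.15% higher in aged cells.

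Of the 45 genes called higher in young cells, 0 were called higher and 2 lower in aged cells by limma, against 1.15% and 0.944% of all genes. At an unadjusted p under 0.05, 5 were higher and 4 lower in aged cells, but the aged share of all genes at that p is not given here. The median aged change of the 45 was 0.03, equal to that of all genes to 2 decimals. In 25 of them the aged change was also positive. For 12 the difference between the ages passed. Ppil6 changed by 1.72 in young and 0.04 in aged cells (difference 1.67, adjusted p = 0.0129), Npr3 by 1.23 and 0.06 (1.17, 0.0338), Cldn7 by 1.21 and 0.02 (1.19, 0.0303) and Wnt3a by 0.94 and -0.06 (1.00, 0.0204). Frmd4a changed by 0.91 and -0.24 (1.15, 0.00113). For the other 33 the difference did not pass, which does not show that the ages acted alike. Nacc2, for example, changed by 1.03 and 0.30 (difference 0.74, adjusted p = 0.0776).

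**Figure D5:**
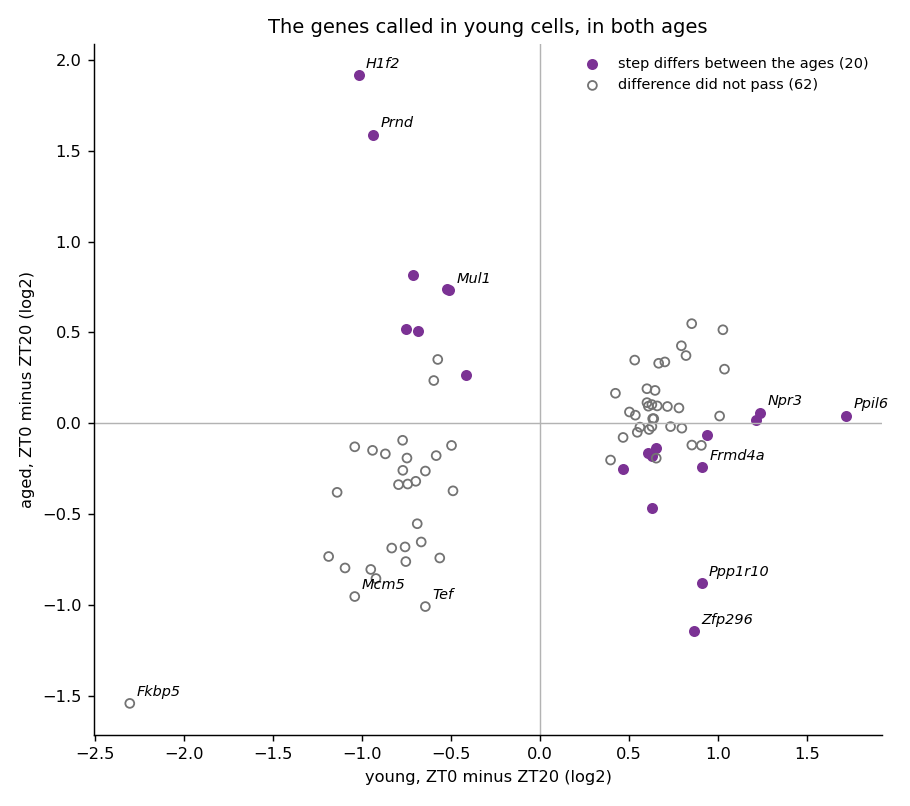
ZT0 minus ZT20 (log2) of the 82 genes called in young cells, in young (x axis) and aged cells (y axis). Filled purple points are the 20 genes whose step differed between the ages (limma, adjusted p under 0.05) and open grey points the other 62. H1f2 and Prnd stand at the upper left, lower in young and higher in aged cells, and Ppp1r10 and Zfp296 at the lower right.

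In 7 genes the step was called in opposite directions in the 2 ages. The young calls are those of the fit of the 24 young arrays and the aged calls those of all 48. Of the genes called in young cells, 33 of 45 higher and 23 of 37 lower were still called with all 48 arrays. In the alternative settings the young adjusted p (limma) reached 0.182 for H1f2, 0.2 for Prnd and 0.16 for Zfp296. H1f2 changed by -1.02 in young and 1.91 in aged cells (difference -2.93, limma, adjusted p = 0.00113) and Prnd by -0.94 and 1.59 (-2.53, 0.00399). Aged ZT0 replicate 4 stood apart in both, with 8.61 for H1f2 against 10.83 to 11.09 in the other aged ZT0 arrays, and 3.97 for Prnd against 6.76 to 7.07. The aged ZT0 and ZT20 arrays overlapped in 6 of the 7 genes, all but Mul1. Without that array the differences were -3.53 for H1f2 and -3.26 for Prnd (limma, adjusted p = 2.21e-07 and 8.21e-11). Mul1, a ubiquitin ligase of the mitochondrial outer membrane, had 8.12, 7.86, 8.15 and 8.10 at ZT0, against 8.75, 8.53, 8.51 and 8.50 at ZT20, in young cells. Its step was -0.51 in young and 0.73 in aged cells (difference -1.25, adjusted p = 0.000172), though a second probe set changed by -0.13 in young cells. In the other direction Ppp1r10 changed by 0.91 and -0.88 (difference 1.79, 0.000172) and Zfp296 by 0.86 and -1.14 (2.00, 0.00598). Aged ZT0 replicate 4 had 8.18 for Zfp296 against 6.24 to 6.34 in the other 3, and without it the difference was 2.47 (adjusted p = 5.65e-06).

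The remaining genes with the smallest p of this difference were not called in young cells. Tm4sf1, a membrane protein of the tetraspanin-like family, differed by -0.74 in young cells (limma, adjusted p = 0.0756) and changed by 0.81 in aged cells. Hpca, a neuronal calcium sensor, differed by 0.63 (0.121) and changed by -0.93, Fam71a by 0.41 (0.525) and -1.97, and Apol8 by 0.66 (0.437) and -2.25. Their young arrays overlapped, except those of Tm4sf1. The 2 DNA methyltransferases called in young cells, Dnmt1 for upkeep and Dnmt3a for new methylation (named after their values were seen), moved in opposite directions at ZT0. Dnmt3a was higher by 0.40 ± 0.09 (limma, adjusted p = 0.0432), passed in 6 of 19 alternative settings, and changed by -0.20 in aged cells (difference 0.60, adjusted p = 0.0537).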

How the data were processed

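RNA of young and aged epidermal stem cells was measured on 1-colour Affymetrix arrays, 48 in all, amplified from 25 ng of total RNA in 17 cycles, per the labels' protocols. The deposited values are log2 probe set levels made by the authors with RMA, per the submitters' processing notes (no version named), and whether the 2 ages were normalised as 1 set is not given in the sources used here. RMA evens out the distributions of arrays, so a change in total RNA would not be seen. The number of arrays limits the precision.

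Of 45141 probe sets, 28898 carried 1 gene symbol, 551 several and 15692 none in the probe table. The probe set of the highest mean stood for each of 17097 genes, and the lowest 25% of genes by mean (under 3.96) were left out, which leaves 12823. Limma 3.58.1 in R 4.3.3 (lmFit, eBayes) was fitted to the 24 young arrays with a mean for each time. The aged step and the difference came from 1 fit of all 48 arrays. Adjustment of p-values followed Benjamini-Hochberg across the 12823 genes, and the fit was tested on simulated data.

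Members and the 39 gene lists were chosen with earlier results of these data known. Named genes are the 12 largest rises and falls among called genes whose arrays do not overlap, clock genes, up to 4 genes of each list by smallest p (3 for cell types), and the 8 smallest p of the difference between ages. Genes with only a predicted or clone name were skipped. Lists were described by counts and medians, with no set test.

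As alternatives, dim genes were kept or 50% of genes were dropped, probe sets of a gene were averaged, arrays were median-centred or normalised by cyclic loess, and array weights or eBayes with trend and robust were used. Others were the replicate number as a block, other sets of arrays in the fit, a change of at least 1.5-fold and each array left out in turn. Leaving out ZT0 replicates 2 and 3 together was chosen after seeing the data. Residuals of arrays with the same replicate number had a mean correlation of -0.000737, against 0.000912 for different numbers, so the numbers were not used to pair mice. Promoter windows are RefSeq's, in GRCm38.p6.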

Additional observations from a re-analysis of the deposited data

Results flagged for a closer look

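The step differed between the ages by the test of the difference itself (limma, 48 arrays, adjusted p under 0.05) for 19 of the 82 genes named. Young step minus aged step was positive for Ppil6 (1.67), Npr3 (1.17), Cldn7 (1.19), Wnt3a (1.00), Frmd4a (1.15), Ppp1r10 (1.79), Zfp296 (2.00), Ddit4 (1.46), Ppara (1.01), Fam71a (2.38), Apol8 (2.91) and Hpca (1.56). It was negative for H1f2 (-2.93), Prnd (-2.53), Bhlhe40 (-0.85), Asns (-0.72), Sox9 (-1.22), Mul1 (-1.25) and Tm4sf1 (-1.54). Several of these were named for this difference.

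In 9 of 164 gene and group pairs 1 array stood apart from the other 3, and how many chance alone would pick out was not tested. ZT0 replicate 2 did so in 5 of them. It had 10.13 for Sox9, a transcription factor of the hair follicle, against 9.20 to 9.30 in the other ZT0 arrays. It had 8.07 for Npas2 (others 7.56 to 7.62), 3.79 for Ror1 (4.25 to 4.27), 7.78 for Ppara (8.37 to 8.45) and 7.86 for Mul1 (8.10 to 8.15). ZT0 replicate 3 had 8.00 for Fam102b (7.20 to 7.26). At ZT20, replicate 1 had 8.75 for Mul1 (8.50 to 8.53), replicate 2 had 5.78 for Per2 (6.28 to 6.34) and replicate 3 had 9.07 for Lig1 (9.26 to 9.29).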

How the results depend on the processing

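Main counts were 45 higher and 37 lower at ZT0. They were 499 and 248 with array weights, 7 and 7 with only the 8 arrays compared, 23 and 11 without ZT0 replicates 2 and 3, and 78 were lower after cyclic loess. With 1 array left out in turn they ranged from 18 to 218 higher and from 15 to 64 lower. The aged count of 269 was 154 with only the 24 aged arrays and ranged from 96 to 492 with 1 array left out. The count of genes that differed between the ages, 167, was 373 with array weights and ranged from 59 to 356. With the replicate number as a block, 36 genes were higher and 28 lower, 256 were called in aged cells and 156 differed between the ages. Correlations of same-numbered young ZT0 and ZT20 arrays were 0.378, -0.0082, -0.154 and 0.203. The fits with 8 arrays have fewer residual degrees of freedom, and the cause of the other shifts was not tested. All 82 genes called kept their sign in each setting that gave them a value.

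Signs turned in genes with differences near 0. With 1 young array left out in turn the differences ranged from -0.50 to 0.022 for Arntl, -0.21 to 0.0069 for Cry2, -0.067 to 0.0091 for Rora, -0.090 to 0.070 for Csnk1d, -0.018 to 0.14 for Csnk1e, -0.28 to 0.13 for Tsc22d3 and -0.099 to 0.14 for Pdk4. Without ZT0 replicates 2 and 3 they were 0.0021 for Rora, 0.044 for Ciart, 0.066 for Csnk1d, -0.055 for Tsc22d3 and -0.12 for Pdk4. Cyclic loess gave 0.0033 for Csnk1d, -0.011 for Csnk1e, -0.020 for Tsc22d3 and -0.062 for Pdk4, array weights 0.022 for Csnk1d and -0.20 for Pdk4, and the mean of all probe sets -0.0090 for Tsc22d3.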

Other observations

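Of 8 genes of other cell types and states in young cells, none passed over all genes with all arrays weighted equally (limma), and 7 passed with array weights, all but Sbsn. These genes were picked by hand and do not stand for their lists. With array weights 499 genes were called higher and 248 lower of the 12823. On their lists, 2 higher and 1 lower of 12 suprabasal genes were called, and 0 and 3 of 13 stressed keratinocyte genes. For interferon-stimulated genes it was 2 and 0 of 11, and for melanocyte genes 0 and 1 of 3. Lor, a cornified envelope protein, was 8.61, 6.39, 7.15 and 7.63 at ZT0, against 5.88, 6.72, 6.66 and 6.31 at ZT20 (1.05, adjusted p = 0.148). It passed without ZT0 replicate 2 (1.40, adjusted p = 0.024) and without ZT0 replicates 2 and 3 (1.72, 0.0194). The suprabasal genes Tgm3 and Sbsn differed by -0.66 and -0.34 (adjusted p = 0.183 and 0.181), and Tgm3 passed without ZT0 replicate 3 (-0.97, 0.00627). With equal weights the 13 stressed keratinocyte genes had a median of 0.04, with 7 changes positive and 6 negative. At an unadjusted p under 0.05, 1 was higher and 1 lower (7.69% each, against 7.65% and 4.0% of all genes). Sprr1b, a gene of stressed keratinocytes, was 6.64, 6.45, 5.45 and 4.83 at ZT0, against 7.39, 6.40, 7.17 and 6.74 at ZT20 (-1.08, adjusted p = 0.266). Krt16, a keratin of activated epidermis, split the ZT0 arrays in the same way, with 10.99 and 10.94 in replicates 1 and 2 and 9.74 and 9.33 in replicates 3 and 4. Its ZT20 values were 11.53, 10.90, 11.43 and 10.38. Ptgs2, the inducible cyclooxygenase, was likewise 8.51 and 9.30 in ZT0 replicates 1 and 2 and 7.45 and 7.34 in replicates 3 and 4. Its ZT20 values were 9.10, 9.27, 8.88 and 8.37.

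Usp18, an interferon-stimulated gene, differed by 0.79 (adjusted p = 0.0964), with overlapping arrays, and passed without ZT0 replicate 2 (0.99, adjusted p = 0.024) and without ZT20 replicate 4 (0.95, 0.0499). Mitf, a transcription factor of melanocytes, was lower in all 4 ZT0 arrays (7.19 to 7.62) than in the 4 ZT20 arrays (7.71 to 8.04), by -0.49 (adjusted p = 0.147). A second, dim probe set of Mitf differed by -0.002. The other melanocyte genes tested, Pmel and Sox10, differed by 0.11 and -0.02, and Dct and Mlana were under the dim limit at both times.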
